A study of Mus musculus with 7 samples.

Results

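The genes for the proteins of the cytosolic ribosome were examined in 4T1 tumor cells from mouse mammary fat pads. They were chosen by name among the protein-coding genes of the expression table: Rpl and Rps symbols with a number, Rplp0, Rplp1, Rplp2 and Rpsa, leaving out the Rps6k kinases. This gave 84 of 57126 genes, 51 of the large subunit and 33 of the small subunit. Of these, 77 encode the standard ribosomal proteins (46 large, 31 small), called core genes here, and 7 are paralogs (Rpl3l, Rpl7l1, Rpl10l, Rpl22l1, Rpl39l, Rps4l and Rps27l). The rule uses names and not measured values, but it was set with earlier results of these data known.

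All 7 libraries came from the same model, mCherry-expressing 4T1 cells, a line of triple-negative breast cancer, grown in syngeneic BALB/c mice and collected by FACS after tumors had formed. The fat pad had been injected 7 days before the cells with 100 µL of PBS (3 libraries, PBS 1 to 3) or with 0.3 units of Botox in the same volume of PBS (4 libraries, Botox 1 to 4). Botox is botulinum toxin, which stops nerve endings from releasing transmitter and was used to denervate the pad. The labels name 1 mouse per library and give no age, and their treatment field reads untreated for every sample, so the groups were taken from the titles. A single cell line was used, and no library without an injection was analysed here.

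Each ribosome carries 1 copy of nearly every ribosomal protein, and cells make these proteins in matched amounts. Most mouse ribosomal protein genes are short, have several small exons and have left many processed pseudogenes, copies of their mRNA, elsewhere in the genome. Their mRNAs start with a run of pyrimidines (the TOP motif), through which mTOR signaling and the RNA-binding protein Larp1 set how much of the mRNA is translated. Translation of a TOP mRNA can change without a change in its level, and RNA-seq measures only the level.

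Promoter stretches are shown for the 5 large-subunit genes with the smallest p among those with a positive fold change after Botox and the 3 with the lowest fold changes, because pyrimidine runs at the start mark TOP mRNAs. Of the 84 genes, 63 had a promoter in RefSeq (GRCm38.p6), with 75 windows in all. Each printed stretch runs from 40 bases before to 20 bases from the annotated start onward, and capitals mark CTTT with 1 more C or T on each side, read on the gene's own strand, where overlapping matches run together. Where RefSeq gave several starts, the first with a match is shown. The marks do not show which mRNAs are TOP. The marked runs of Rpl4 and Rpl34 lie wholly before the annotated start, and the pyrimidine run of Rpl14 is unmarked because it has no CTTT.
Rpl9 (chr5:65391412-65391471, minus strand): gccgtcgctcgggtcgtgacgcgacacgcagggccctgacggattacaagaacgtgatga
Rpl12 (chr2:32961672-32961731, plus strand): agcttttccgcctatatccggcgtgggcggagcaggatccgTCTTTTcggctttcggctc
Rpl34 (chr3:130730318-130730377, minus strand): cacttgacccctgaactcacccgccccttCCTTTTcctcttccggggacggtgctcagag
Rpl41 (chr10:128549149-128549208, minus strand): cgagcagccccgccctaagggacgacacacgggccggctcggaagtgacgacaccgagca
Rpl37a (chr1:72711220-72711279, plus strand): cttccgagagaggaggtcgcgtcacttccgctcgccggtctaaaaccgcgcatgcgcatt
Rpl4 (chr9:64173347-64173406, plus strand): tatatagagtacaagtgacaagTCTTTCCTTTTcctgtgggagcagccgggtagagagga
Rpl14 (chr9:120571477-120571536, plus strand): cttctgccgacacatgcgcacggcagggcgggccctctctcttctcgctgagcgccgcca
Rpl15 (chr14:18270967-18271026, minus strand): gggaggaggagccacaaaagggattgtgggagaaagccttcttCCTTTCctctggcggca

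A run of this kind stood in the 60-base stretch of 28 of the 75 windows of ribosomal protein genes (37.3%), against 7.17% of 19154 windows of protein-coding genes. Over the whole 300-base window on the same strand the shares were 66.7% and 33.8%. The letters CCGGAAG, which ETS factors can bind, stood on either strand of 36.0% of the ribosomal protein windows and 12.4% of all windows. These matches describe sequence and not binding. Among tested core genes with a promoter, the median log2 fold change after Botox was 0.14 for the 23 with a run in the stretch and 0.19 for the 29 without, and the ranges overlapped.

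Levels are given as TPM, a measure of reads per length in which the authors used the whole genomic span, introns included, as length. The deposited constant of 0.001 was subtracted. Estimated depth was 8.75 to 13.6 M reads after PBS and 8.56 to 10.5 M after Botox, and PBS libraries detected 24368 to 25147 genes against 15625 to 24211 after Botox. Botox 2 and Botox 4 stood apart, with 2.98% and 2.41% of their detected genes at 1 to 4 reads against 13.9% to 23.5% in the other libraries. Fold changes of named members are therefore also given without these 2 libraries where the sign turned or the value moved by over 1.5 times. Epithelial markers (Krt8, Krt18, Krt19, Epcam and Cdh1) were all detected and summed to 211 to 252 deposited TPM after PBS and 74.4 to 247 after Botox. Macrophage markers summed to 855 to 1322 deposited TPM after PBS and 235 to 1096 after Botox, above the epithelial sum in every library. On the scaled values used below, the macrophage sum in Botox 2 and Botox 4 was above every PBS library. In Botox 1 and Botox 3 it was below every PBS library.

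Rpl41 stood far above every other ribosomal protein gene. It encodes the smallest ribosomal protein, a short basic peptide that lies between the subunits, and its span is also short (1192 bases). Its mean of 632 TPM made up 40.2% of the TPM of all 84 genes, followed by Rplp1, an acidic stalk protein, at 89.9 TPM. Rpl41 also led by estimated reads (5393 per library on average), before Rpl4 (1071) and Rpl14 (1068), and by reads per kilobase of spliced transcript. The highest small-subunit genes were Rps12 (45.1 TPM), Rps15 (32.6 TPM) and Rps20 (22.8 TPM). The median core gene was at 5.88 TPM and 173 reads.

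**Figure D1:**
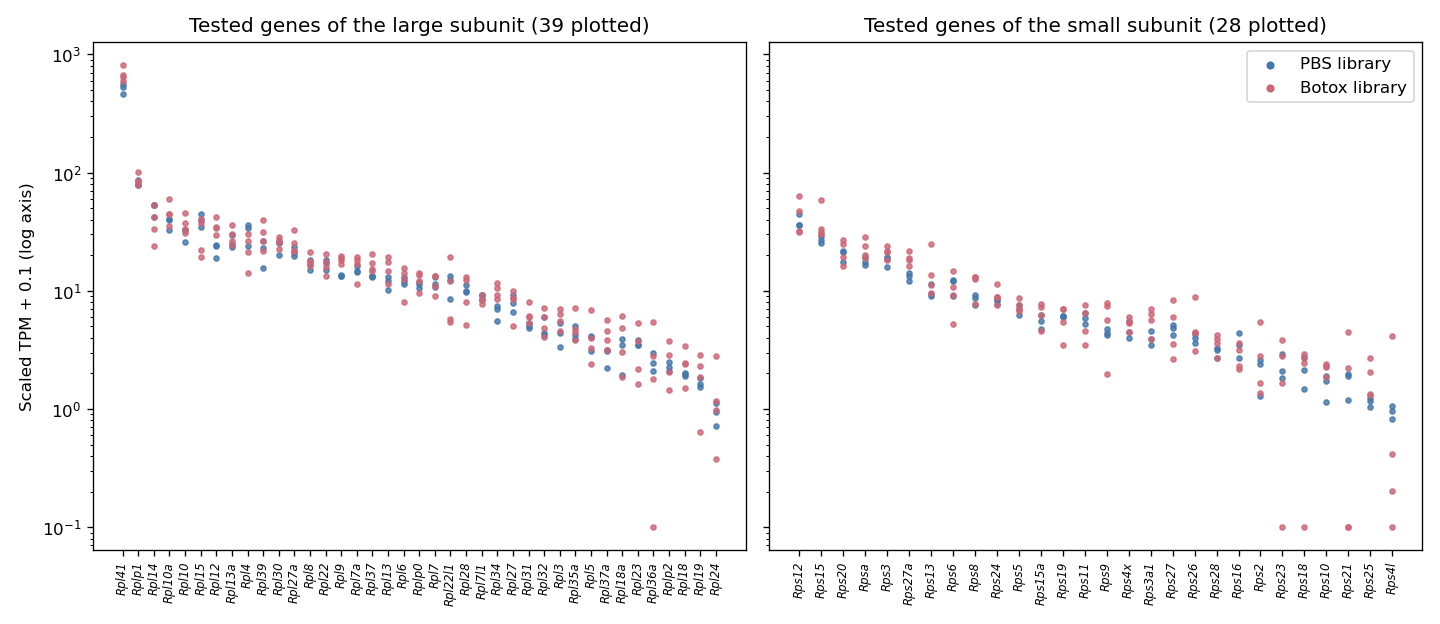
Scaled TPM + 0.1 on a log axis for the 39 tested genes of the large subunit and 28 of the 29 of the small subunit, ordered by mean. Each point is 1 library, blue for PBS and red for Botox. Rpl41 lies above all others, and the libraries spread more widely towards the low end.

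Several genes were at or near 0. Of the core genes, 2 (Rpl36 and Rpl38) were listed at 0 in all 7 libraries, Rps29 in 6 and Rpl17 in 5. Rpl3l, Rpl10l and Rpl39l, paralogs known mainly from muscle and testis, were also listed at 0 in every library. Low TPM did not always mean few reads: Rpl11, whose annotated span is 25164 bases, had 84.2 reads on average and only 0.467 TPM.

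Many reads lay at processed pseudogenes, for high genes as well as for low ones. The table holds 316 pseudogenes named after 63 of the 84 genes, and they carried 88057 to 214296 estimated reads per library against 16462 to 35154 at the genes themselves. In 38 of the 61 core genes with such a pseudogene, the pseudogenes had more reads than the gene. Rpl36 had 1172 and Rpl38 had 999.9 reads at pseudogenes and none at the gene. Rps29 had no read at its pseudogene either. How reads that match a gene and its copies were assigned is not given in the sources used here, so the level of such a gene is uncertain.

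The comparison of Botox with PBS asked whether the ribosomal protein genes moved relative to all protein-coding genes in the cells collected by FACS. Each library's TPM was divided by a size factor (0.430 to 1.41) that sets the typical protein-coding gene equal across libraries, and log2(scaled TPM + 1) was tested with limma over all 11253 genes that had at least 1 TPM in at least 3 libraries. This scale understates the change of low genes. Of the 84 genes, 68 passed that filter, 39 large and 29 small, of which 65 were core. The other 16 comprised 12 core genes (Rpl11, Rpl17, Rpl21, Rpl23a, Rpl26, Rpl29, Rpl35, Rpl36, Rpl38, Rps7, Rps14 and Rps29) and 4 paralogs (Rpl3l, Rpl10l, Rpl39l and Rps27l).

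No ribosomal protein gene passed an adjusted p of 0.05 by limma, and the lowest adjusted p among them was 0.933. The background was equally empty, with 0.00889% of all tested genes higher after Botox and 0% lower. Without adjustment, 7 members were higher and 0 lower at p under 0.05, where 2.53% of all tested genes were higher and 1.93% lower. Among protein-coding genes these shares were 2.12% and 1.11%. Among them were Rpl9, Rpl12, Rpl34, Rpl37a and Rpl41 of the large subunit and Rps27a of the small subunit.

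Fold changes of the ribosomal protein genes leaned to the positive side without single genes passing the test. The log2 fold change was above 0 in 49 of 68, or 72.1%, against 47.7% of protein-coding genes. Their median was 0.15 and that of protein-coding genes -0.01, a difference of 0.16. In 10 members all Botox libraries were above the highest PBS library (among them Rpl9, Rpl12, Rpl34, Rpl37, Rpl37a, Rpl41, Rps15, Rps25 and Rps27a), and in 0 members were all below the lowest. Among protein-coding genes 4.73% lay wholly above and 3.61% wholly below. The genes share libraries, so these counts carry no test.

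The sign of these fold changes depended on the scale, because the median protein-coding gene itself lay at -0.45 after Botox on the deposited TPM. There 66 of the 68 members were below 0 and their median was -0.38, which is 0.07 above that of the protein-coding genes. Relative to the protein-coding median, 51 of 68 members lay above it on the scaled values and 39 on the deposited ones, 37 of them on both. Wholly below PBS on the deposited TPM were 3 members (Rpl8, Rpl35a and Rpl7l1), where 28.9% of protein-coding genes were, and 0 were wholly above, where 0.0277% were.

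**Figure D2:**
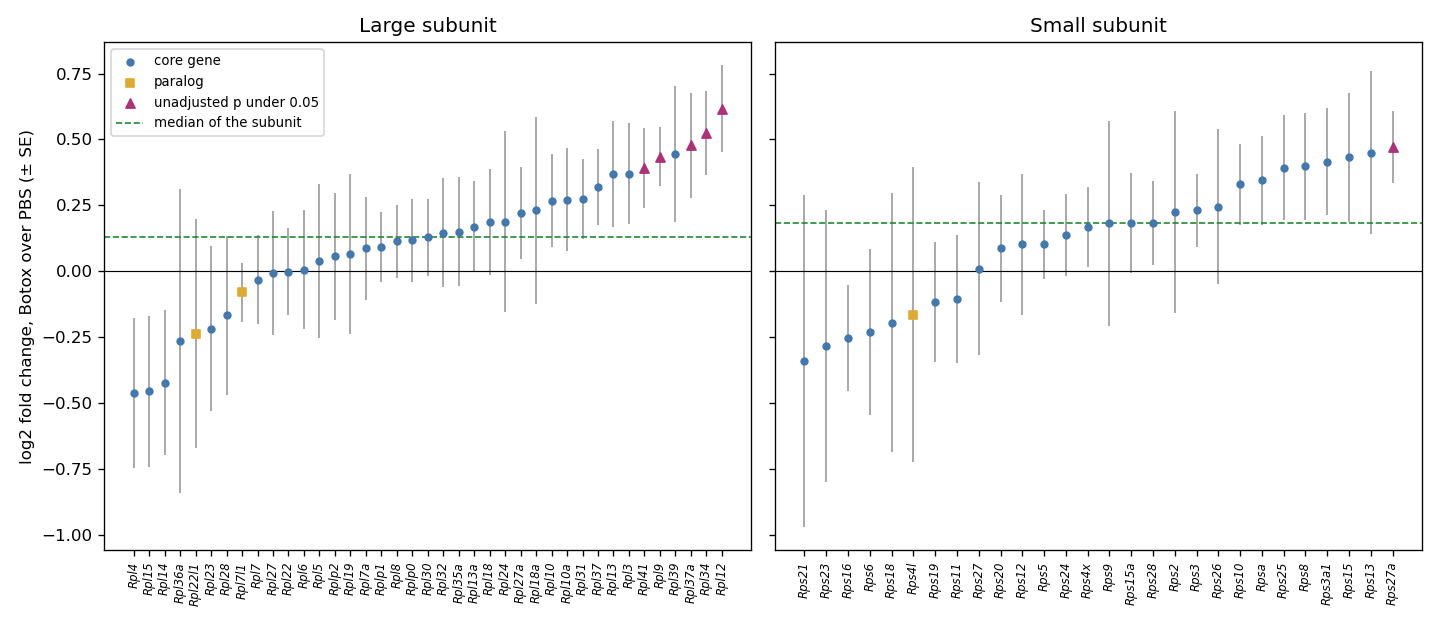
Log2 fold change of scaled values, Botox over PBS, with its limma standard error, for the tested genes of each subunit in order of size, leaving out 1 gene of the small subunit. Triangles mark genes with an unadjusted p under 0.05, squares the 3 paralogs, and dashed lines the subunit medians of 0.13 and 0.18; on the deposited TPM 66 of the 68 tested genes are below 0.

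The libraries did not contribute evenly. Against the PBS mean, the median member was at -0.03, 0.09 and -0.01 in PBS 1 to 3 and at 0.19, 0.04, 0.34 and 0.04 in Botox 1 to 4, on the log2 scale. Botox 3 and Botox 1 thus stood above all PBS libraries, while Botox 2 and Botox 4 lay inside the PBS range. Of the 65 tested core genes, 53 exceeded every PBS library in Botox 3 and 45 did so in Botox 1. In Botox 2, 23 were above and 23 below every PBS library, and in Botox 4 the numbers were 31 and 23. The spread between libraries was wider after Botox in 58 of the 65 genes, with a median SD of 0.32 on the log2 scale against 0.16 after PBS. The median difference from protein-coding genes was 0.29 without Botox 2 and Botox 4 and 0.08 without Botox 3.

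**Figure D3:**
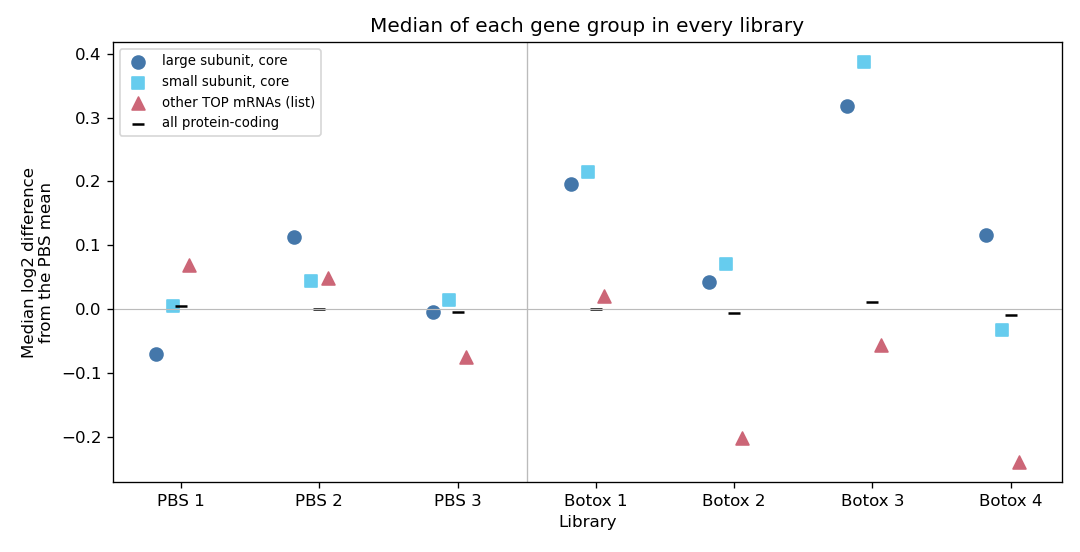
Median log2 difference from the PBS mean for tested core genes of the large and small subunit, for the list of other TOP mRNAs and for all protein-coding genes, in each of the 7 libraries on the scaled values. Botox 1 and Botox 3 stand highest for both subunits, and all protein-coding genes stay near 0 by construction.

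Of the TPM of protein-coding genes, the 84 genes held 1.53%, 1.63% and 1.61% in PBS 1 to 3 and 1.91%, 1.74%, 2.00% and 1.80% in Botox 1 to 4. The groups did not overlap on this share, and the means were 1.59% ± 0.0499 (SD, n = 3) and 1.86% ± 0.116 (SD, n = 4). By estimated reads the shares were 0.368%, 0.400% and 0.368% after PBS and 0.436%, 0.378%, 0.549% and 0.406% after Botox, and Botox 2 lay below PBS 2, so the groups overlapped. Rpl41 weighs heavily in the TPM share, with 36.3%, 37.4% and 41.1% of the members' TPM in PBS 1 to 3 and 40.4%, 42.8%, 42.4% and 43.5% in Botox 1 to 4. Without Rpl41 the groups overlapped on the TPM share too, because Botox 2 and Botox 4 then lay below PBS 2. As a share of all TPM, the order for the 84 genes turned. The PBS libraries averaged 0.174% ± 0.00454 (SD, n = 3) and the Botox libraries 0.144% ± 0.0663 (SD, n = 4). The RNA 7SL, a noncoding part of the signal recognition particle, took 47.9% to 52.0% of all TPM after PBS and 53.0% to 70.4% after Botox, and its part in this difference was not tested. In such bulk libraries, fewer cells of a type and less RNA per cell cannot be told apart.

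**Figure D4:**
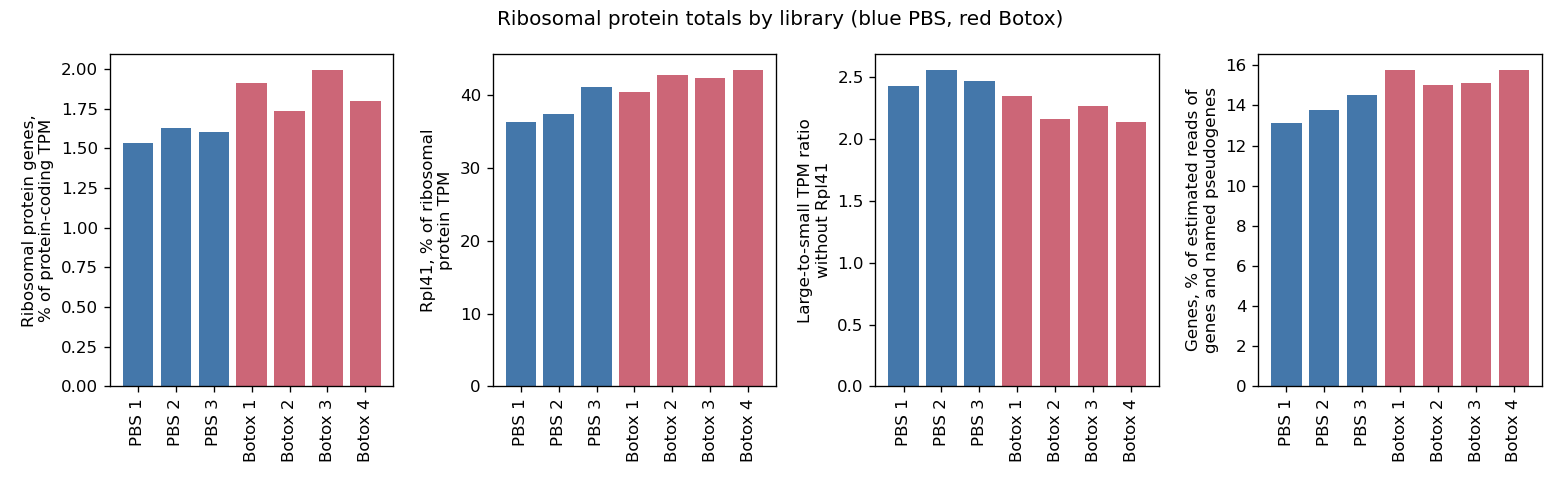
For each library, blue for PBS and red for Botox: the share of protein-coding TPM held by ribosomal protein genes, the share of Rpl41 in their TPM, the ratio of large- to small-subunit TPM without Rpl41, and the share of estimated reads at the genes among reads at genes and their named pseudogenes. All axes start at 0. The first and the last panel show Botox bars above all PBS bars, and the third shows them below. Without Rpl41 the groups of the first panel would overlap.

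Among the large-subunit genes, Rpl9 had the smallest p. The protein sits near the base of the stalk, where translation factors dock. Its scaled TPM was 13.4, 13.4 and 13.2 in PBS 1 to 3 and 18.7, 16.9, 18.2 and 19.8 in Botox 1 to 4. The PBS libraries were nearly equal and all Botox libraries lay above them (log2 fold change 0.43 ± 0.11 SE, limma adjusted p = 0.933, unadjusted p = 0.00572). Relative to protein-coding genes it was 0.45 on the scaled and 0.28 on the deposited values. Only 16.2% of the reads of Rpl9 and its 8 named pseudogenes lay at the gene, and summed with them the fold change was 0.22.

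Rpl12 had the largest fold change of all members, and nearly all its reads (99.9%) lay at the gene. Its protein forms the stalk base together with the stalk protein Rplp0. Scaled TPM was 18.9, 24.2 and 24.0 after PBS and 33.7, 29.3, 34.8 and 41.7 after Botox, without overlap. The log2 fold change was 0.62 ± 0.16 SE (limma adjusted p = 0.933, unadjusted p = 0.00730), and the value relative to protein-coding genes was 0.44 on the deposited TPM. Its span overlaps Lrsam1 on the opposite strand.

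Rpl41 was at 460, 525 and 562 scaled TPM in PBS 1 to 3 and at 638, 597, 806 and 674 in Botox 1 to 4. The lowest Botox library was just above the highest PBS library (log2 fold change 0.39 ± 0.15 SE, limma adjusted p = 0.933). No pseudogene in the table is named after it. Leaving out each library in turn gave 0.31 to 0.46. Rpl37a, a zinc-binding protein of the large subunit, stood at 2.11, 3.03 and 2.97 after PBS and at 3.04, 5.54, 3.77 and 4.48 after Botox. Its lowest Botox and highest PBS library nearly touched, at a log2 fold change of 0.48 ± 0.20 SE. Botox 2 and Botox 4 were its highest libraries, so much of the difference came from them. The fold change of Rpl37a without them is not given here.

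Rpl34, another protein of the large subunit, measured 5.42, 7.36 and 6.98 scaled TPM after PBS and 11.6, 10.4, 9.19 and 8.44 after Botox. Its log2 fold change was 0.52 ± 0.16 SE (limma adjusted p = 0.933), but only 6.92% of the reads shared with its named pseudogenes lay at the gene. Summed with them, the fold change was -0.03, so the difference did not hold for gene and copies together.

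At the other end stood Rpl4, Rpl15 and Rpl14, all among the large-subunit genes with most reads. Rpl4 reaches with a long arm into the tunnel through which the new protein leaves. It measured 36.0, 33.6 and 23.8 scaled TPM in PBS 1 to 3 and 30.04, 13.9, 26.4 and 21.1 in Botox 1 to 4. The groups overlapped widely (log2 fold change -0.46 ± 0.28 SE, limma adjusted p = 0.933). Rpl15 was at 44.1, 39.8 and 34.3 after PBS and 37.0, 22.2, 40.5 and 19.2 after Botox, where Botox 2 and Botox 4 were the low libraries. Rpl14 had 53.0, 53.1 and 41.9 after PBS and 41.6, 33.2, 53.1 and 23.6 after Botox, again lowest in Botox 4. Their log2 fold changes were -0.46 ± 0.29 SE and -0.42 ± 0.27 SE. Summed with their named pseudogenes these came to -0.09 and -0.20. The low values of all 3 genes came mainly from Botox 2 and Botox 4. Without these libraries the fold changes were -0.13 for Rpl4, -0.02 for Rpl15 and -0.07 for Rpl14. Rpl23, a protein of the face where the subunits meet, followed with -0.22 ± 0.31 SE, and with 0.26 without Botox 2 and Botox 4.

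In the small subunit, Rps27a had the smallest p. It encodes a fusion of ubiquitin with a ribosomal protein, so its mRNA also supplies ubiquitin. Its scaled TPM was 14.1, 13.3 and 12.1 in PBS 1 to 3 and 16.1, 19.0, 18.1 and 21.5 in Botox 1 to 4. All Botox libraries lay above (log2 fold change 0.47 ± 0.14 SE, limma adjusted p = 0.933, unadjusted p = 0.0109). Of the reads at Rps27a and its named pseudogenes 9.34% lay at the gene, the summed fold change was 0.16, and the span overlaps Clhc1 on the opposite strand.

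Rps15, whose protein lies in the head of the small subunit near the decoding site, measured 25.3, 26.7 and 29.2 after PBS and 33.0, 30.2, 31.4 and 58.4 after Botox. Botox 4 was far above the other libraries, and the log2 fold change of 0.43 ± 0.24 SE was 0.21 without it. Rps10 (0.33 ± 0.15 SE) and Rps3a1 (0.42 ± 0.20 SE) were also among the 4 small-subunit genes with the smallest p in that direction, with overlapping groups. Without Botox 2 and Botox 4 the value was 0.24 for Rps15 and 0.27 for Rps3a1, and summed with its named pseudogenes Rps10 was at -0.03.

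**Figure D5:**
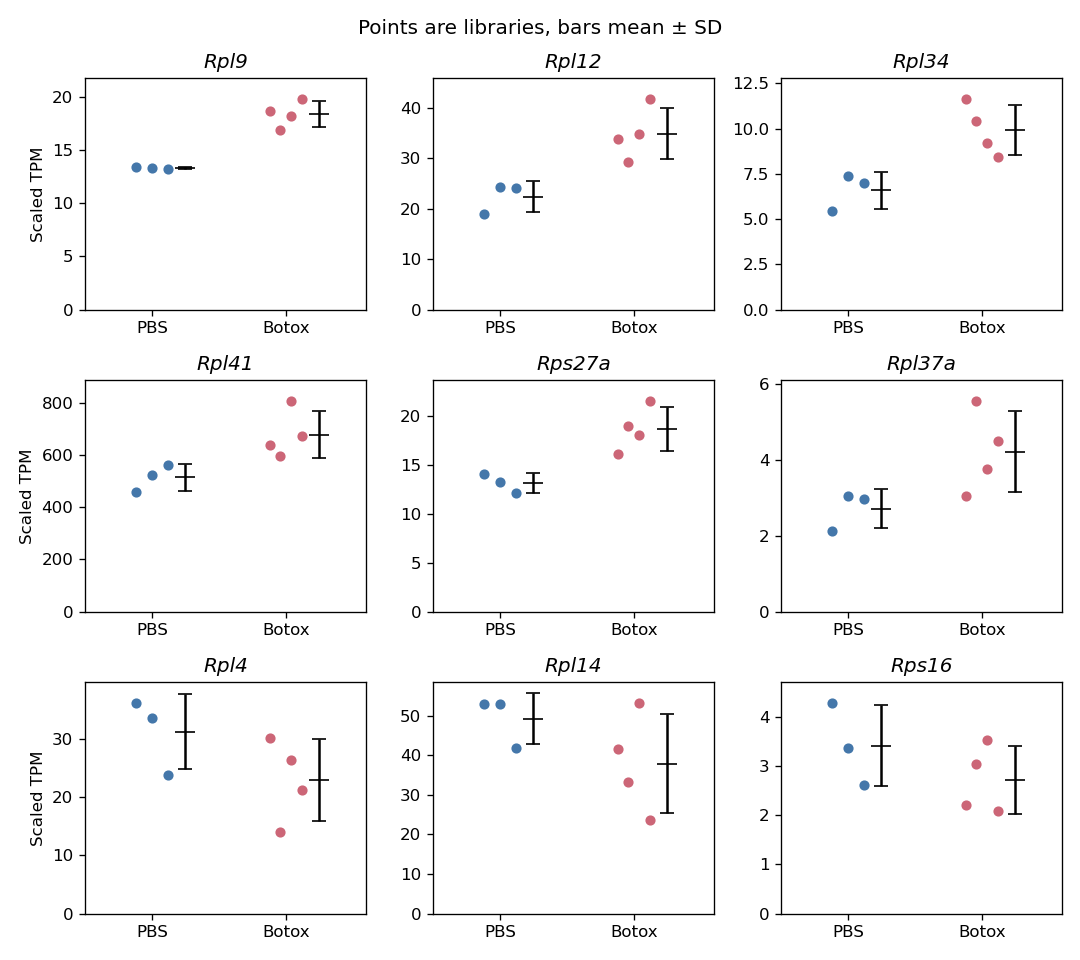
Scaled TPM in each library for 9 ribosomal protein genes, with points for libraries and bars for mean ± SD (n = 3 PBS, n = 4 Botox), all axes from 0. The upper 6 genes show Botox libraries above all PBS libraries and the lower 3 (Rpl4, Rpl14 and Rps16) overlap; none of the 9 passed an adjusted p of 0.05, and on the deposited TPM all 9 had a fold change below 0.

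Small-subunit genes on the negative side did not separate the groups. Rps16, whose tail touches the tRNA in the peptidyl site, was at 4.27, 3.36 and 2.61 scaled TPM after PBS and 2.202, 3.04, 3.52 and 2.08 after Botox, at a log2 fold change of -0.25 ± 0.20 SE (0.04 when summed with its named pseudogenes). Rps6, the classical substrate of the S6 kinases downstream of mTOR, measured 12.1, 8.98 and 12.3 after PBS and 14.5, 9.04, 10.7 and 5.09 after Botox. That order put Botox 1 highest and Botox 4 lowest of all 7, and the log2 fold change was -0.23 ± 0.32 SE. Without Botox 4 the value of Rps6 was 0.02, and without Botox 2 and Botox 4 it was 0.15. Rps23, a protein of the decoding center, and Rps21 had -0.28 ± 0.52 SE and -0.34 ± 0.63 SE, and both were listed at 0 in Botox 4, as was Rps21 in Botox 2. Without Botox 2 and Botox 4 they were at -0.05 and 0.71, and with array weights, which count variable libraries less, Rps21 was at 0.28 and Rps6 at 0.23.

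The stalk proteins, which recruit translation factors, had small fold changes over all libraries. They were 0.12 ± 0.16 SE for Rplp0, 0.09 ± 0.13 SE for Rplp1 and 0.06 ± 0.24 SE for Rplp2, and 0.28, 0.18 and 0.40 without Botox 2 and Botox 4. Rpl5 and Rpl11 bind 5S rRNA and, when ribosome assembly fails, the p53 regulator Mdm2. Rpl5 was at 0.04 ± 0.29 SE, or at -0.05 without these libraries. Rpl11 was too low in TPM to be tested, at 0.338, 0.401 and 0.425 scaled TPM after PBS and 0.674, 0.451, 0.440 and 0.342 after Botox, with overlapping groups. Rps19, the gene most often mutated in Diamond-Blackfan anemia, a failure of red cell production in humans, was at -0.12 ± 0.23 SE, and at 0.18 without Botox 2 and Botox 4. Rpsa, also known as the laminin receptor, was at 0.34 ± 0.17 SE, and at 0.04 when summed with its named pseudogenes.

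The tested paralogs had no settled direction. The 3 tested paralogs had log2 fold changes of -0.08 ± 0.11 SE (Rpl7l1), -0.24 ± 0.43 SE (Rpl22l1) and -0.17 ± 0.56 SE (Rps4l), and none passed the test. Their partners Rpl7, Rpl22 and Rps4x were at -0.03 ± 0.17 SE, 0.00 ± 0.17 SE and 0.17 ± 0.15 SE, so the errors of the members of each pair overlapped. Rpl22l1, which can take the place of Rpl22 in the ribosome, ranged from 8.46 to 13.1 scaled TPM after PBS. It had 11.97, 5.36, 19.3 and 5.69 in Botox 1 to 4, low in Botox 2 and Botox 4. Without these libraries Rpl22l1 was at 0.42, Rpl7l1 at -0.03 and Rps4l at -0.70. Rps4l was also at 0.18 under quantile normalization and at 0.02 with a pseudocount of 5. The partners Rpl22, Rpl7 and Rps4x were at 0.17, 0.15 and 0.07 without Botox 2 and Botox 4. In scaled TPM, Rpl7l1 was somewhat below Rpl7 (8.45 to 9.13 against 10.8 to 13.1 after PBS), with spans of 8766 and 3368 bases as lengths. Per kilobase of spliced transcript the means were 218 reads for Rpl7l1 and 355 for Rpl7. Only 23.1% of the reads of Rpl7 and its named pseudogenes lay at the gene, so their relative level is uncertain. Rps27l lay under the filter with at most 0.673 scaled TPM, against 2.57 to 8.21 for Rps27. Of the partners of the 3 paralogs listed at 0, Rpl3 had 0.37 ± 0.19 SE (-0.05 when summed with its named pseudogenes), Rpl10 had 0.27 ± 0.18 SE and Rpl39 had 0.45 ± 0.26 SE.

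Large and small subunit genes were then set against each other. Their median log2 fold changes were 0.13 for 39 large-subunit and 0.18 for 29 small-subunit genes, a difference of -0.05, against an SD of 0.11 between libraries. The sign of the difference turned when PBS 3 or Botox 3 was left out (0.02 and 0.05). By gene medians the subunits were therefore not separated beyond the spread between libraries.

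Summed TPM gave another picture. With Rpl41, the ratio of large- to small-subunit TPM was 4.38, 4.68 and 4.89 in PBS 1 to 3 and 4.62, 4.53, 4.67 and 4.54 in Botox 1 to 4, within the PBS range. Without Rpl41 it was 2.42, 2.56 and 2.47 after PBS and 2.35, 2.16, 2.27 and 2.13 after Botox, so that all Botox libraries were below all PBS libraries. The log2 difference was -0.16. Without Rps15 as well, a choice made after the values were seen, the groups still did not overlap (2.72 to 2.87 after PBS, 2.46 to 2.695 after Botox). Without Rpl4, Rpl14 and Rpl15, also chosen after their low fold changes were seen, so that the ratio after Botox had to come closer, the ranges were 1.86 to 2.05 and 1.89 to 1.96. By estimated reads with Rpl41 included, the groups overlapped (2.88 to 3.04 after PBS and 2.62 to 2.94 after Botox). That ratio compares with the TPM ratio that includes Rpl41 and not with those without it. The ratio by reads without Rpl41 is not given here.

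Genes outside the name rule that belong to the ribosome or to its supply were compared by lists. The 4 ribosome parts with other names, among them Fau, Rack1 and Rpl36al, had a median log2 fold change of -0.10, with 0 of 4 past the test. Their median per library was 0.05 and 0.17 in Botox 1 and Botox 3, above all PBS libraries (-0.05 to 0.03), and -0.17 and -0.42 in Botox 2 and Botox 4. Rack1, a scaffold on the small subunit, was at -0.11 ± 0.20 SE. Rpl36al, a paralog of Rpl36a, was at -0.54 ± 0.29 SE and lowest in Botox 2.

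Other genes with TOP mRNAs, translation factors for the most part but also genes such as Vim and Hnrnpa1, were compared as a list. Their median was -0.13 over 14 tested of 15, with 4 above 0 and 0 past the test. By library the median was 0.02 and -0.06 in Botox 1 and Botox 3, inside the PBS range of -0.07 to 0.07, and -0.20 and -0.24 in Botox 2 and Botox 4. Eef1a1, which brings tRNA to the ribosome, was at 0.00 ± 0.13 SE, and Eef2, which moves the ribosome along, at 0.10 ± 0.12 SE. Eif4b, an initiation factor, was at -0.24 ± 0.11 SE with scaled TPM of 22.3, 21.1 and 19.9 after PBS and 19.4, 16.6, 17.5 and 17.3 after Botox, without overlap. Nap1l1, a histone chaperone and no translation factor, was at -0.34 ± 0.18 SE.

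Among 12 regulators of ribosomal protein mRNAs, 9 were tested, 2 were above 0 and 0 passed the test, with a median of -0.21. Their median per library was -0.08 to 0.03 after PBS and -0.07, -0.13, -0.27 and -0.12 in Botox 1 to 4. Larp4, which binds poly(A) and protects ribosomal protein mRNAs, was at -0.38 ± 0.16 SE, and Eif4e, which binds the cap, at -0.30 ± 0.14 SE. Among 15 chaperones and import factors of ribosomal proteins, 12 were tested and 6 were above 0, with a median of -0.02 and 0 past the test. The import factor Tnpo1 (-0.31 ± 0.13 SE) and Tsr2, known in yeast as the escort of Rps26 (-0.30 ± 0.16 SE), had the smallest p. On the deposited TPM all tested genes of these 4 lists were below 0.

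Measures of the libraries that moved with the groups were set beside the shift. Gene span was one of them. Other protein-coding genes under 3 kb had a median log2 fold change of 0.03 and those over 30 kb one of -0.06, while ribosomal protein genes under 3 kb (29) were at 0.18 and those of 3 to 6 kb (32) at 0.15. In Botox 3 the other protein-coding genes under 3 kb were 0.22 above the protein-coding median and the ribosomal protein genes of that size 0.41. The share of reads at the genes, among reads at genes and named pseudogenes, was 13.1%, 13.7% and 14.5% in PBS 1 to 3 and 15.8%, 15.02%, 15.1% and 15.8% in Botox 1 to 4, without overlap. With genes and pseudogenes summed, the members' median stood 0.09 above that of protein-coding genes. Macrophage markers, on the scaled values, were below every PBS library in Botox 1 and Botox 3, where the members' median was 0.19 and 0.34. They were above every PBS library in Botox 2 and Botox 4, where it was 0.04 in both. The parts of depth, span, pseudogene reads and macrophage RNA in the shift were not tested.

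Within the ribosome, fold change showed little relation to these properties. Across the 65 tested core genes, which share libraries and are not replicates, Spearman's rho of the fold change was -0.02 with span, 0.08 with reads and 0.10 with the share of reads at the gene. The median was 0.18 for 34 genes with at least 50% of the reads at the gene and 0.14 for the 31 others. Genes that host a small nucleolar RNA gene in their span, as many ribosomal protein genes do, had a median of 0.22 (27 genes) against 0.14 for the 38 others.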

How the data were processed

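The deposited table gives TPM made by the authors with the genomic span as length (length equals stop minus start in all 57126 rows) plus a constant of 0.001, which was subtracted. The authors worked with Bowtie2 2.2.5, with SAMtools and with DESeq2 on build mm39, per the submitters' processing notes, which state no roles. Per the labels' protocols, RNA was ribodepleted and libraries were stranded and sequenced from both ends. The counter, its strand setting and its rule for reads with several matches are unknown (not given in the sources used here). Where a gene overlaps another on the opposite strand, as 16 of the 84 do, reads may not be separable. The authors' table of gene sets was not used.

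TPM was divided by median-of-ratios size factors over tested nuclear protein-coding genes (7226). All genes reaching 1 TPM in 3 or more libraries (11253) were tested on log2(scaled TPM + 1) with limma 3.58.1 in R 4.3.3. The fit had an intensity trend and the group as the only term, and was two-sided with Benjamini-Hochberg adjustment at 0.05. On simulated data, these steps called 42.3% of genes given a log2 change of 1 and 77% of those given 2. Smaller changes, such as those of the ribosomal protein genes, were not simulated, so a lack of calls does not show that they were unchanged. Standard errors are limma's. The filter lets a gene in through the group where it is high, and 15 of the 68 tested members were under 1 TPM in some library. Reads were estimated from the steps between low values (89.3% to 90.7% of values under 20 reads lay within 0.1 of a whole number) and serve only for description. Depth, ranks, shares and ratios by reads, and the reads at genes against pseudogenes rest on these estimates. Exons and spliced lengths came from GENCODE M21 by gene ID. Python 3.11.15 with pandas 2.3.3 was used.

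The members, gene lists and named genes were chosen with earlier results of these data known. Members were named when they had one of the 4 smallest p on each side of 0 in either subunit, were among the 3 highest in either subunit, or were paralog pairs, stalk proteins, Rpl5, Rpl11, Rps6, Rps19 or Rpsa. Others are named from counts of 10 or fewer, or for their levels. Of other lists, the 2 genes with the smallest p were named, and Eef1a1, Eef2 and Rack1 for their roles. Not every gene named by these rules is reported here. Alternatives covered scaling, pseudocount, filters, array weights, pseudogene sums, a replicate block and leaving out libraries.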

Additional observations from a re-analysis of the deposited data

Results flagged for a closer look

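In the 4 Botox libraries, 1 library stood far from the other 3 for 2 members by Dixon's ratio of the gap to the range at the 95% level. For Rps15 the ratio was 0.901, because Botox 4 (58.4 scaled TPM) was far above the others (30.2 to 33.0). For Rps4l, the low paralog of Rps4x, the ratio was 0.921, because Botox 2 (4.05 scaled TPM) was far above the others (0 to 0.319). The span of Rps4l overlaps Tmtc1 on the opposite strand. Chance marks about 1 in 20 such groups. In all, 47 groups of genes and summary measures were examined, so 2 marks are near the number that chance alone would give.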

How the results depend on the processing

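No ribosomal protein gene was called under any setting. The number of all genes called was 1 in the main setting, 42 without a filter on low values (1 higher, 41 lower), and 0 with the deposited TPM, with a mean of at least 5 TPM, with protein-coding genes only, and without Botox 2 and Botox 4 together. Leaving out each library in turn gave 0 to 3. The members' median relative to protein-coding genes (0.16) was positive under all settings, between 0.07 on the deposited TPM and 0.29 without Botox 2 and Botox 4, and 0.08 to 0.23 when each library was left out in turn. The log2 ratio of the share of protein-coding TPM was 0.23 (0.19 to 0.26 with each library left out) and -0.27 as a share of all TPM. The large minus small median of -0.05 ranged from -0.06 to 0.05 with each library left out. Deviations of same-numbered libraries correlated at 0.10, -0.03 and -0.18, and those of differently numbered ones at -0.15 to 0.16. With so few libraries this cannot show whether the replicate numbers pair the samples. With the replicate number as a block, 0 genes were called and the members' median was 0.23. Genes with few reads, such as Rps21 and Rps23, have errors too wide to show a change of the size seen in Rpl9. Estimated depths cover counting error only.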
